A study of Mus musculus with 22 samples.

Results

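The Cyp4a genes encode cytochrome P450 enzymes of the endoplasmic reticulum that add a hydroxyl group to the terminal, or omega, carbon of fatty acids. Of the 6 listed mouse symbols (Cyp4a10, Cyp4a12a, Cyp4a12b, Cyp4a14, Cyp4a31 and Cyp4a32), 5 named a probe on the array. These 5 genes were read by 8 of the 41174 probes that are not controls, and stand among 28034 genes named on the array. The members are every probe that the array files name by a listed symbol. The family was picked because the knockout effect on Cyp4a14 differed between fed and fasted adults, so the adult knockout effects of its members are given here as a description, with no test. No probe carried the name Cyp4a32, and that gene was not measured by a probe of its own.

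The study asked how livers of mice without Tcf7l2 (TCF4), the partner through which beta-catenin switches on Wnt target genes, differ from those with it under metabolic demand. The newborn set held 4 Tcf7l2-/- pups, labelled TCF4KO, and 4 Tcf7l2+/+ pups. All were C57BL/6, all received 50 ul of 10% glucose under the skin, and livers were taken 5 h after birth. The adults were C57BL/6 mice homozygous for a loxP-flanked Tcf7l2 allele. Knockouts, labelled LTCF4KO, also carried SA-CreERT2, a Cre recombinase that tamoxifen activates, whereas for controls the labels name no Cre. Knockouts and controls alike had received tamoxifen at 3 weeks of age. They were studied 1 to 2 months later, either fasted for 24 h (4 knockouts and 4 controls) or fed freely (3 knockouts and 3 controls). The controls therefore shared the floxed allele and the drug, but not the recombinase. Each liver was hybridised on 1 array, and per the labels the mice of a group are biological replicates. The number of arrays limits the precision of every value.

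Omega-hydroxylated fatty acids are oxidised further by alcohol and aldehyde dehydrogenases to dicarboxylic acids, which peroxisomes shorten. In mouse liver Cyp4a10 and Cyp4a14 are textbook targets of PPAR alpha (gene Ppara), the nuclear receptor that fatty acids activate during fasting. Cyp4a12a is known in mice as a male-biased enzyme that also hydroxylates arachidonic acid, and Cyp4a12b is its close copy.

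All 8 probes are 60 bases long and lie on chromosome 4 of build mm9, in 1 cluster. The Cyp4a14 probe lies at chr4:115158914-115158973 on the minus strand, and the others read the plus strand. Cyp4a10 has 4 probes. Probe A_51_P254895, the brightest and the only one for which the files list RefSeq transcripts of Cyp4a10 alone, lies at chr4:115206200-115206259. Probe A_52_P257774 spans chr4:115205268-115205756 and probe A_52_P6588 spans chr4:115197445-115197926, each longer than the probe because it crosses an intron. The files list Cyp4a32 transcripts for both of these as well, so their signal may hold both genes. Probe A_52_P340136, which the files tie to a GenBank mRNA, lies at chr4:115198154-115198213. The probes named Cyp4a12a (chr4:115005343-115005402) and Cyp4a12b (chr4:115106662-115107596) each list transcripts of both genes, so neither can be assigned to 1 copy. The Cyp4a31 probe lies at chr4:115242824-115242883.

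The following probe sequences, taken 5′ to 3′ from the array files, are shown because the results below turn on which copy each probe reads: 2 of the Cyp4a10 probes, which gave different adult values, the Cyp4a12b probe, which lists both Cyp4a12 copies, and the Cyp4a31 probe, which was read in fasted adults but not in fed ones.
Cyp4a10 A_52_P6588: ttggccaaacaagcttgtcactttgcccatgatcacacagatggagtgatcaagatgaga
Cyp4a10 A_52_P340136: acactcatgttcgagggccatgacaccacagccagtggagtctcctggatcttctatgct
Cyp4a12b A_51_P433360: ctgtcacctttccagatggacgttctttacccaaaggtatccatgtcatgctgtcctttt
Cyp4a31 A_52_P218449: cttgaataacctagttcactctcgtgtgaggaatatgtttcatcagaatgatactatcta

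Each array carried liver RNA labelled with Cy3 and a common mouse reference RNA labelled with Cy5. The measure used first is the log2 ratio of liver over reference after background correction and loess normalization within the array, on which 1 unit is a doubling. A second measure, the liver channel alone after quantile normalization between arrays and on a log2 scale, is given beside it. It was planned as an alternative, and it is printed throughout because the 2 measures differed for these genes. A probe counts as well above background where Agilent's software marked its liver signal so. Genes passed a test at a Benjamini-Hochberg adjusted p below 0.05 in limma. The newborn fit held 17176 genes and the adult fit 17188. Both are whole-liver measurements, in which fewer cells of a type and less RNA per cell cannot be told apart.

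Several facts of the whole series touch these results. Between 49.6% and 61.3% of probes were well above background in the liver channel on fasted arrays, against 22.5% to 30.8% on fed arrays and 49.5% to 63.8% on newborn arrays. The newborn knockouts lay on 1 slide and the newborn wild types on another, and fasted and fed arrays lay on different slides, so slide cannot be told apart from newborn genotype or from feeding. The brightest Tcf7l2 probe averaged -1.66 in newborn knockouts and -0.78 in wild types (adjusted p = 0.0572, limma, n = 4 each). Its change in the liver channel was -0.83 ± 0.16 and passed the test (adjusted p = 0.0272, limma). Another Tcf7l2 probe, A_52_P146043, well above background on every newborn array, did not fall, at 0.02 in knockouts and -0.06 in wild types. In adults the brightest probe averaged 0.32 in fasted knockouts and -0.03 in fasted controls, and -0.15 in fed knockouts and -0.36 in fed controls. It thus did not read lower in adult knockouts, and whether it lies in the deleted part was not tested. All 9 hepatocyte markers on the array were well above background on every array. Newborn knockouts 1 and 4 and newborn wild type 1 stood apart on the first principal component. Fasted knockouts 1 and 2 stood apart on the second component of the adult arrays. Fasted knockouts 2 and 3 read all 5 pancreatic enzyme genes above background, at a summed log2 liver signal of 16.4 and 15.3, against 9.36 to 10.8 on the other adult arrays. The X-inactivation RNA Xist had probes above background on 4 of the 8 newborn arrays (knockouts 3 and 4, wild types 1 and 4), and in 3 of those Y-linked genes were read too. Every adult array read between 2 and 4 Y-linked genes. Among adults Xist was read only in fed knockout 1, by 1 probe.

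Cyp4a14, an omega-hydroxylase strongly induced by PPAR alpha ligands, had log2 ratios of 5.28, 6.54 and 5.75 in fed knockouts, against 7.60, 8.06 and 8.02 in fed controls. In fasted adults the ratios were 8.00, 7.43, 8.15 and 8.09 in knockouts, against 7.82, 7.69, 7.64 and 8.12 in controls. The fed groups did not overlap, and the fasted groups did. These are the values for which the family was picked.

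The change in fed knockouts was -2.03 ± 0.28 (SE), or 4.09-fold lower than in fed controls. In fasted knockouts it was 0.10 ± 0.24, a 1.07-fold difference from fasted controls, with a 95% interval of -0.42 to 0.62. The difference between these effects, 2.14 ± 0.37, chose the family and is not tested. Across all genes 0.221% passed the test for a knockout effect in fed livers, 0.5% in fasted livers and 0 of 17188 for the interaction, with 1133 at an unadjusted p below 0.05. The family was chosen on these contrasts, so nothing is read from these shares.

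**Figure D1:**
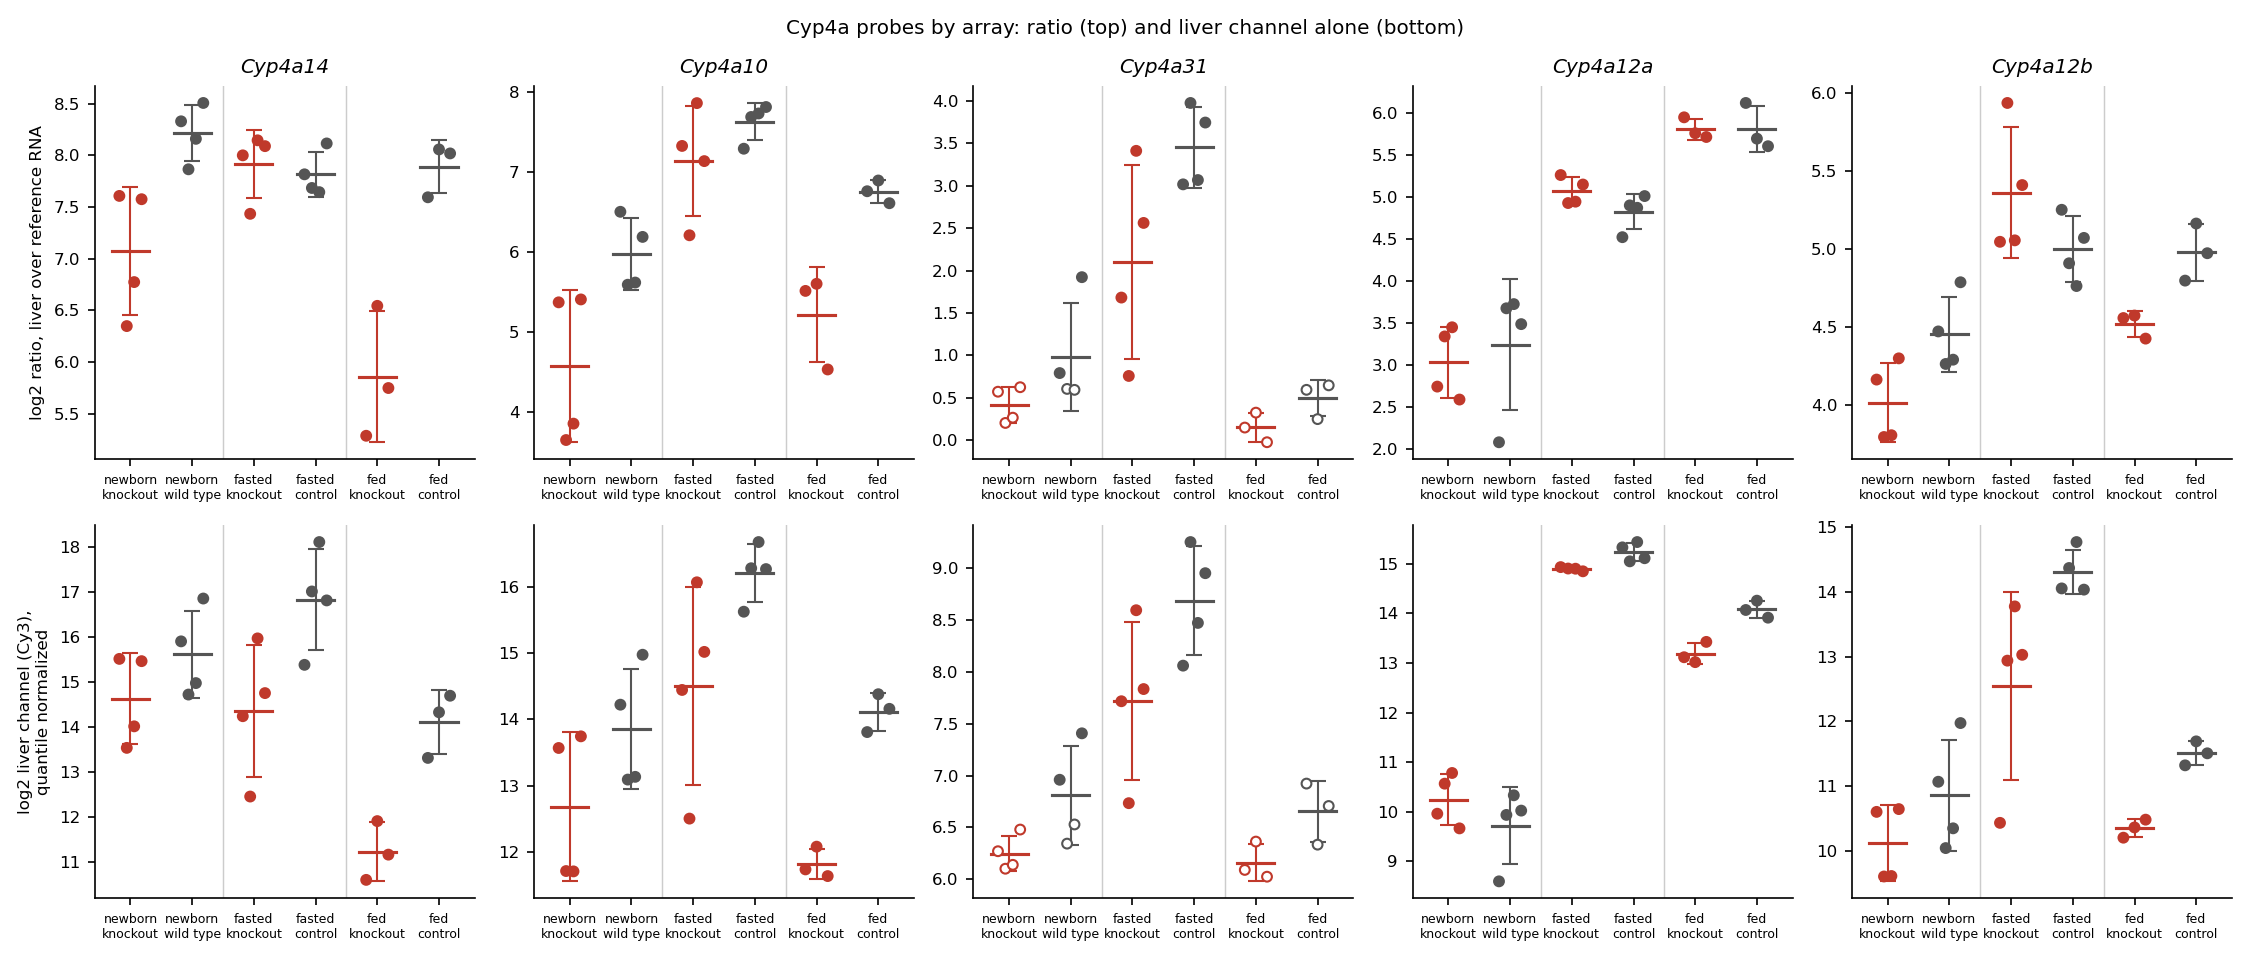
The brightest probe of each measured Cyp4a gene on all 22 arrays, by group, as the log2 ratio of liver over reference RNA (vertical axes, top row) and as the quantile-normalised log2 liver channel (vertical axes, bottom row), with knockouts in red, wild types or controls in grey, group means as horizontal lines and SDs as bars; filled points are well above background in the liver channel and open points are not. By ratio, Cyp4a14 sat between 7.43 and 8.15 on all adult arrays other than the fed knockouts, which sat between 5.28 and 6.54.

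The liver channel by itself gave Cyp4a14 another pattern in fasted livers. Its normalised log2 signal was 14.24, 12.45, 15.97 and 14.75 in fasted knockouts, against 15.38, 17.01, 18.11 and 16.81 in fasted controls. Fed knockouts had 10.60, 11.90 and 11.16, and fed controls 13.31, 14.33 and 14.69. Fasted knockouts were thus lower on average than fasted controls, by -2.48 ± 0.67 (5.57-fold), although knockout 3 overlapped the control range.

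In fed knockouts the change on this measure was -2.89 ± 0.78 (7.41-fold lower), with no overlap. The difference between the fasted and the fed knockout effect, 2.14 ± 0.37 by ratio, was 0.41 ± 1.03 in the liver channel, with an interval from -1.79 to 2.62. Of all genes 0.285% passed in fed and 0.419% in fasted knockouts on this measure. The contrast for which the family was picked is therefore present in the ratio and smaller than its error in the liver channel.

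The reference channel carries the same RNA on every array, yet its raw signal at the Cyp4a14 spot differed widely. It ranged from 223 to 1127 intensity units in fasted knockouts, against 956 to 3484.5 in fasted controls. In fed livers it was 134 to 157.5 in knockouts and 150 to 314 in controls. Arrays with a brighter liver signal at this spot had a brighter reference signal at it.

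Raw liver signal at the same spot was 7847.5 to 81043.5 units in fasted knockouts, against 57758 to 234616 in fasted controls. Fed knockouts had 1001 to 2282.5 units and fed controls 4311 to 19553. No liver spot of the family was marked as saturated. Over the 14 adult arrays the SD of the log2 reference signal, after loess within and Aquantile normalization between arrays, was 1.61 for Cyp4a14, against a median of 0.29 over 17188 genes, and 5 genes (0.0291%) had a larger one. Among the other members it was 1.61 for Cyp4a12b, 1.14 for Cyp4a12a, 0.81 for Cyp4a10 and 0.11 for Cyp4a31.

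Pearson's r between raw liver and raw reference signals was 0.96 for Cyp4a14, 0.99 for Cyp4a12a, 0.99 for Cyp4a12b and 0.95 for Cyp4a10 over the 14 adult arrays, against a median of 0.77 over all genes. For Cyp4a31 r was 0.98, although its reference signal varied little, with an SD of 0.11. The channels of an array share its overall brightness, so these values are a description. Where the reference signal rises with the liver signal, a ratio moves less than the liver signal does. Why the reference signal moved was not tested, and both measures are reported for every member.

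**Figure D2:**
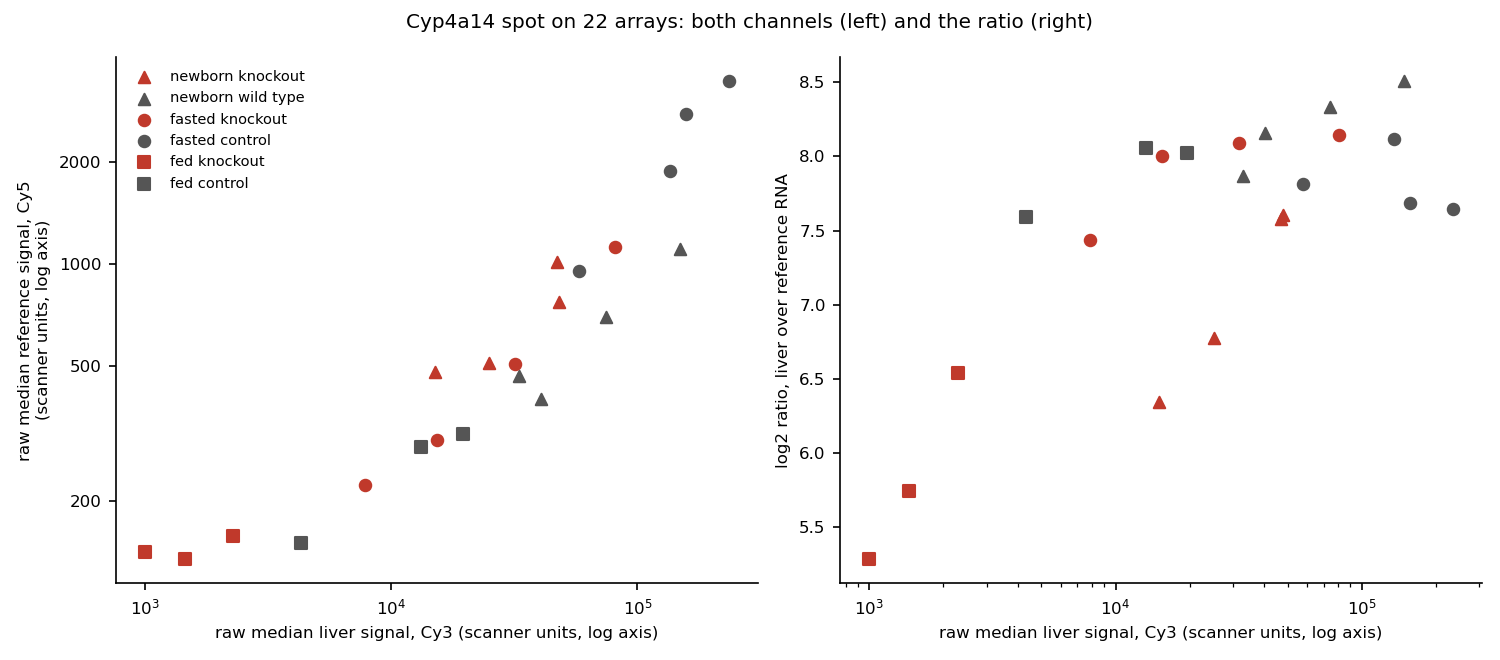
Cyp4a14 on all 22 arrays, with raw liver signal on a logarithmic horizontal axis and raw reference signal on a logarithmic vertical axis (left) or the log2 ratio on a linear one (right), by group. Reference signal ran over all arrays from 134 to 3484.5 units, and the ratio stayed between 7.43 and 8.15 on the 11 adult arrays that were not fed knockouts.

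Cyp4a10, the other inducible omega-hydroxylase of the family, was likewise lower in fed knockouts by ratio at its brightest probe. Its ratios were 5.51, 5.60 and 4.53 in fed knockouts, against 6.76, 6.89 and 6.61 in fed controls. Fasted knockouts had 7.33, 6.21, 7.86 and 7.14, and fasted controls 7.29, 7.69, 7.73 and 7.81. The fed groups were separate and the fasted groups overlapped, with fasted knockout 2 the lowest of the fasted livers.

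The change in fed knockouts was -1.54 ± 0.35 by ratio and -2.30 ± 0.62 in the liver channel. In fasted knockouts it was -0.50 ± 0.31 by ratio and -1.71 ± 0.54 in the liver channel. As for Cyp4a14, the liver channel placed the fasted knockouts further below their controls than the ratio did.

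The 4 probes named Cyp4a10 disagreed in size by ratio in fasted knockouts. There the changes at the other probes were 0.32 (A_52_P257774), -0.25 (A_52_P340136) and -2.09 (A_52_P6588). In fed knockouts they were -0.97 at A_52_P257774 and -0.39 at A_52_P340136, and A_52_P6588 gave only a bound. All 4 probes were lower in fed knockouts, and 3 of the 4 in fasted knockouts.

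Probe A_52_P6588 had the widest spread, with ratios of 0.93, 3.16, 5.91 and 5.25 in fasted knockouts, against 5.60, 5.90, 6.01 and 6.08 in fasted controls. Fasted knockouts 1 and 2 were far below the controls, and knockouts 3 and 4 lay near them. In fed livers its ratios were 0.81, 1.47 and 1.19 in knockouts, none well above background, against 2.49, 2.98 and 2.98 in controls, so fed knockouts were at least 1.91-fold lower. In the liver channel the fasted knockout change at the probes lay closer together, at -2.21 for A_52_P257774, -2.18 for A_52_P340136 and -2.57 for A_52_P6588. All 4 probes were thus lower in fasted knockouts on that measure.

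**Figure D3:**
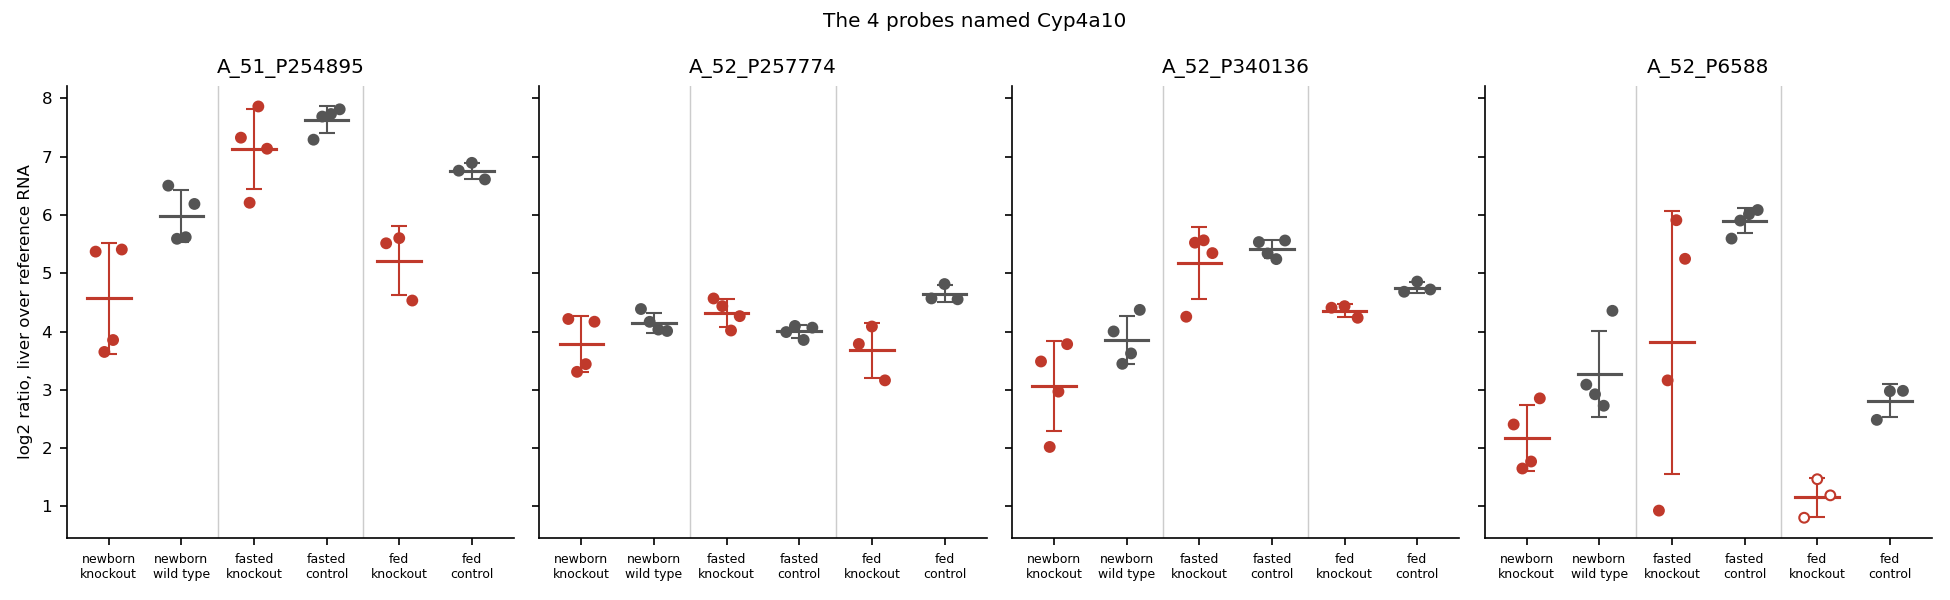
Log2 ratio of liver over reference RNA (vertical axis) on all 22 arrays at the 4 probes named Cyp4a10, drawn by group with knockouts in red, wild types or controls in grey, means as lines and SDs as bars; open points are not well above background. At A_52_P6588 the fasted knockouts ran from 0.93 to 5.91. At A_52_P257774 the group means ran from 3.68 in fed knockouts to 4.65 in fed controls, and those groups did not overlap.

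Cyp4a12a and Cyp4a12b, whose probes list both copies, differed less by genotype in the ratio. Cyp4a12a had ratios of 5.94, 5.75 and 5.71 in fed knockouts, against 6.11, 5.69 and 5.60 in fed controls. Fasted knockouts had 5.26, 4.92, 4.94 and 5.15, and fasted controls 4.52, 4.90, 4.87 and 5.01. Genotypes overlapped in both feeding states, with changes of 0.00 ± 0.16 in fed and 0.24 ± 0.14 in fasted knockouts.

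Cyp4a12b had ratios of 4.55, 4.57 and 4.42 in fed knockouts, against 4.79, 5.16 and 4.97 in fed controls, groups that did not overlap. In fasted livers it had 5.04, 5.93, 5.05 and 5.41 in knockouts, against 5.25, 4.91, 4.76 and 5.07 in controls. The changes were -0.46 ± 0.21 in fed and 0.36 ± 0.18 in fasted knockouts, so the ratio put the fasted knockouts slightly above their controls.

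The order in fasted livers turned in the liver channel. Cyp4a12b had 10.43, 12.94, 13.77 and 13.03 in fasted knockouts, against 14.05, 14.37, 14.77 and 14.03 in fasted controls, with no overlap and a change of -1.76 ± 0.51. Cyp4a12a had 14.93, 14.90, 14.90 and 14.85 in fasted knockouts, against 15.33, 15.05, 15.43 and 15.11 in fasted controls, a change of -0.34 ± 0.13. In fed knockouts the liver-channel changes were -1.16 ± 0.59 for Cyp4a12b and -0.89 ± 0.15 for Cyp4a12a. By this measure both Cyp4a12 probes were lower in knockouts of either feeding state.

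Cyp4a31, a close relative of Cyp4a10, was read among adults only in the fasted ones: its probe was well above background on 8 of 8 fasted arrays and 0 of 6 fed arrays. Its ratios were 1.68, 0.76, 3.41 and 2.56 in fasted knockouts, against 3.02, 3.98, 3.07 and 3.74 in fasted controls. The groups overlapped, and fasted knockouts 1 and 2 were the lowest. The change was -1.35 ± 0.43 by ratio and -0.96 ± 0.33 in the liver channel. Without fasted knockouts 1 and 2 the ratio change was -0.46. In fed livers both genotypes were below background and no fold is given.

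Fasting, averaged over genotypes, is another contrast than those that chose the family, but it rests on the same adult arrays (8 fasted and 6 fed). The Cyp4a genes were higher in fasted than in fed livers, except Cyp4a12a by ratio. Cyp4a14 averaged 7.87 in fasted and 6.87 in fed livers by ratio, a difference of 0.99 ± 0.18 (SE). That difference came from the low fed knockouts for which the family was picked, as the values within genotypes given further on show, so no test is given for it. Cyp4a10 averaged 7.38 in fasted and 5.99 in fed livers, a rise of 1.40 ± 0.23 (adjusted p = 0.00029, limma). Cyp4a12b rose by 0.43 ± 0.14, with changes of 0.84 in knockouts and 0.02 in controls. That average likewise rested on the knockouts, so no test is given for it.

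Cyp4a12a fell by ratio, to 4.95 in fasted livers against 5.80 in fed livers, a change of -0.86 ± 0.11 (adjusted p = 2.99e-05, limma). Cyp4a31 was at least 1.57-fold higher in fasted livers, and because it entered the fit only through the fasted arrays no test is given for it. From Feature Extraction's own log ratio, the fasting change was 0.18 for Cyp4a14 and -0.39 for Cyp4a12b. With local backgrounds marked as outliers kept, Cyp4a12b changed by 0.31. Between fasted and fed livers 53% of all genes tested differed by ratio (29.1% higher, 23.9% lower when fasted). A member that passed thus stands among many that did, and slide cannot be told apart from feeding.

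On the liver channel the 4 members read in both feeding states rose with fasting. Cyp4a14 rose by 2.93 ± 0.51, or 7.60-fold, and Cyp4a10 by 2.40 ± 0.41 (adjusted p = 0.000306, limma). Cyp4a12b rose by 2.50 ± 0.39, with changes of 2.20 in knockouts and 2.80 in controls. No test is given for Cyp4a14 or Cyp4a12b here either, since the low fed knockouts for which the family was picked enter both averages.

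Cyp4a12a, which fell by ratio, rose by 1.43 ± 0.10 in the liver channel (adjusted p = 2.72e-07, limma). Its 2 measures passed the test in opposite directions, and no direction for fasting is given for this gene. On the liver channel 49.5% of all genes passed (27.7% higher, 21.9% lower). Of all genes tested, 3765 passed on both measures in 1 direction and 1265 in opposite directions.

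Within genotypes, the ratio of Cyp4a14 was 2.06 higher in fasted than in fed knockouts and changed by -0.08 in controls. On the liver channel the corresponding values were 3.13 in knockouts and 2.72 in controls. Cyp4a10 changed by 1.92 in knockouts and 0.88 in controls by ratio, and by 2.70 and 2.10 in the liver channel. The near absence of a fasting change of Cyp4a14 in controls was thus seen in the ratio and not in the liver channel.

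The other Cyp4a10 probes changed with fasting by 0.00 (A_52_P257774), 0.74 (A_52_P340136) and 2.87 (A_52_P6588, well above background on 3 of 6 fed arrays) by ratio. In the liver channel they changed by 3.15, 1.65 and 2.15 in that order. The 0.00 at A_52_P257774 averaged ratio changes of 0.64 in knockouts and -0.64 in controls. All 4 Cyp4a10 probes were higher in fasted livers on the liver channel, and 3 of 4 by ratio.

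**Figure D4:**
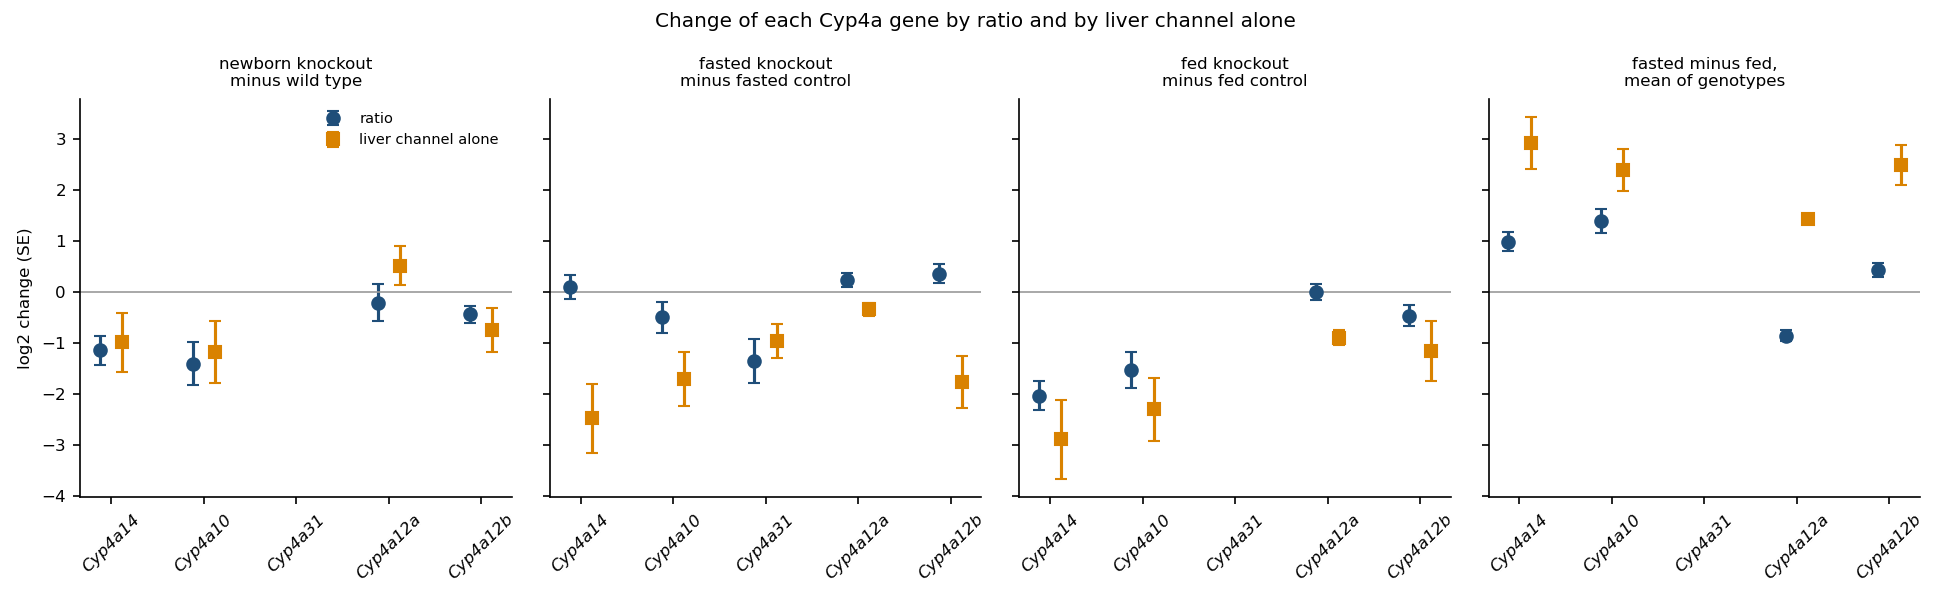
Log2 change (vertical axis) of each member in each comparison, from the ratio (blue circles) and from the liver channel alone (orange squares), with SE bars; Cyp4a31 is drawn only for fasted knockouts, the comparison in which it was read in both groups. The fasting change of Cyp4a12a is -0.86 by ratio and 1.43 in the liver channel, and that of Cyp4a14 is 0.99 and 2.93.

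Hepatocyte markers also read lower in fasted livers by ratio, as Cyp4a12a did. Of 9 tested, 0 rose and 8 fell by ratio, with a median of -1.48, against 3 that rose and 1 that fell in the liver channel, with a median of 0.13. Albumin (Alb), the main plasma protein made by hepatocytes, changed by -1.93 ± 0.13 by ratio (adjusted p = 3.21e-07, limma) and by -0.41 ± 0.24 in the liver channel (adjusted p = 0.168, limma). In fed knockouts all 9 hepatocyte markers lay above 0 by ratio (median 0.47) and 0 passed, against a median of 0.05 in the liver channel. All 14 markers of Kupffer cells, the liver macrophages, also lay above 0 there by ratio (median 0.52, and 0.30 in the liver channel), and 0 passed. In fasted knockouts 3 hepatocyte markers lay above and 6 below 0 by ratio, with a median of -0.03. The part of these shifts in the member values was not tested.

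Newborn livers were independent of the choice of the family. Cyp4a14 had ratios of 7.61, 6.35, 6.77 and 7.58 in newborn knockouts, against 8.33, 7.87, 8.16 and 8.51 in wild types. Its change was -1.14 ± 0.28 (95% interval -1.78 to -0.50, adjusted p = 0.092, limma). It did not pass the threshold over all genes.

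Cyp4a10 had ratios of 5.37, 3.65, 3.86 and 5.41 in newborn knockouts, against 6.50, 5.59, 5.62 and 6.19 in wild types. The change was -1.40 ± 0.43 (adjusted p = 0.153, limma). Both genes were low in knockouts 2 and 3 and higher in knockouts 1 and 4, and knockouts 1 and 4 also stood apart in the whole profile. Without knockouts 1 and 4 and wild type 1, the arrays that stood apart, the changes were -1.62 for Cyp4a14 and -2.05 for Cyp4a10. That choice was made after the data were seen. Leaving out the knockouts with the highest values itself lowers the knockout mean, so no test is given.

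For both genes the newborn groups overlapped in the liver channel. Cyp4a14 had 15.51, 13.53, 14.01 and 15.46 in knockouts, against 15.90, 14.72, 14.98 and 16.86 in wild types, a change of -0.98 ± 0.58 (adjusted p = 0.396, limma). Cyp4a10 changed by -1.18 ± 0.60 (adjusted p = 0.319, limma). The direction was the same as by ratio, with a wider error.

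Cyp4a12b had ratios of 4.16, 3.79, 3.80 and 4.30 in newborn knockouts, against 4.47, 4.26, 4.29 and 4.78 in wild types, a change of -0.44 ± 0.16 (adjusted p = 0.269, limma). Cyp4a12a had 2.74, 3.34, 3.45 and 2.59 in knockouts, against 2.08, 3.67, 3.72 and 3.49 in wild types, a change of -0.21 ± 0.36 (adjusted p = 0.887, limma). The 4 arrays on which Xist was read held both low and high values of this male-biased gene, at 3.45 and 2.59 in knockouts 3 and 4, against 2.08 and 3.49 in wild types 1 and 4, and the part of sex was not tested. In the liver channel Cyp4a12b changed by -0.74 ± 0.43 (adjusted p = 0.39, limma) and Cyp4a12a by 0.52 ± 0.39 (adjusted p = 0.523, limma).

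The Cyp4a31 probe was well above background in 0 of 4 newborn knockouts and 2 of 4 wild types and was not tested. Of the 4 members tested, 0 passed limma's test in newborns on either measure, against 1.46% of all genes by ratio and 5.18% in the liver channel. At an unadjusted p below 0.05, 3 of the 4 (Cyp4a14, Cyp4a10 and Cyp4a12b) were lower by ratio, against 5.81% of all genes. The liver channel did not repeat that count, since the intervals of all 4 members included 0 there. They ran from -2.29 to 0.33 for Cyp4a14 and from -2.53 to 0.18 for Cyp4a10. For Cyp4a12b the interval was -1.72 to 0.24, and for Cyp4a12a -0.36 to 1.40. Kupffer cell markers, which mark resident liver macrophages, moved in the direction of those 3 genes in newborn knockouts. Of 14 tested, 3 fell by ratio and 5 in the liver channel, with medians of -0.58 and -0.49. All 14 were well above background on every newborn array, and their summed log2 liver signal was 17.5 to 17.9 in knockouts, against 18.0 to 18.3 in wild types. Their part in the member values was not tested. Slide and genotype cannot be told apart in this set.

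Ordered by ratio, Cyp4a14 was highest in newborn wild types (8.22 ± 0.27, mean ± SD), then in fasted knockouts (7.92 ± 0.33), fed controls (7.89 ± 0.26) and fasted controls (7.82 ± 0.21), which overlapped one another. Newborn knockouts (7.08 ± 0.62) and fed knockouts (5.86 ± 0.64) were lowest, and the newborn knockouts overlapped the fed knockouts, the fed controls and the fasted knockouts but not the fasted controls. In the liver channel the order was fasted controls (16.83 ± 1.12), newborn wild types (15.61 ± 0.97), newborn knockouts (14.63 ± 1.01), fasted knockouts (14.35 ± 1.46), fed controls (14.11 ± 0.72) and fed knockouts (11.22 ± 0.66). On that measure each neighbouring pair overlapped, apart from the fed knockouts, which lay below every other adult array.

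By likeness across the 14 adult arrays, the genes outside the family whose ratios followed Cyp4a14 most closely were 2210408I21Rik, Atpif1, Slc35e3, Vnn1 and Cgnl1, with Pearson's r of 0.87, 0.86, 0.86, 0.84 and 0.84 among 17027 genes. Within the fed arrays r was 0.90 to 0.99 for these genes, and within the fasted arrays -0.24 to 0.22. For Cyp4a12a they were Serpina6, Lrr1, H2-Q10, Afm and Plod2, at 0.97 to 0.98. Within the family, Cyp4a14 and Cyp4a10 had r of 0.85, and Cyp4a12a and Cyp4a10 had r of -0.64. These points share arrays, slides and the feeding contrast, and are a description of the ratios.

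Related genes were taken from 6 pathway lists. Of the other genes of omega-oxidation, 19 were tested. Aldh3a2, the fatty aldehyde dehydrogenase that completes omega-oxidation, was the only one that passed in adult knockouts. It fell by 2.35 ± 0.22 in fed knockouts (adjusted p = 0.000155, limma) and changed by -3.26 ± 0.19 in fasted knockouts (adjusted p = 9.7e-07, limma). Its liver-channel changes were -2.09 (adjusted p = 0.00093, limma) and -3.65 (adjusted p = 5.9e-07, limma), so both measures gave the fall in both states. The median change of the list was 0.07 in fed and -0.04 in fasted knockouts, against 0.02 and 0.01 over all genes.

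With fasting, 3 of these 19 genes rose and 8 fell by ratio, against 5 that rose and 3 that fell in the liver channel. Adh1, the liver alcohol dehydrogenase, changed by -1.59 ± 0.12 by ratio (adjusted p = 7.48e-07, limma) and by 0.06 ± 0.11 in the liver channel (adjusted p = 0.666, limma). Cyp4f14, another omega-hydroxylase, changed by -0.99 ± 0.11 by ratio (adjusted p = 8.67e-06, limma). In newborn knockouts 0 of 19 passed by ratio, with Aldh1a1, an aldehyde dehydrogenase, at 0.56 ± 0.13 (adjusted p = 0.0673, limma). Aldh1a1 rose by 0.58 in the liver channel (adjusted p = 0.0494, limma) and was the 1 gene of the 19 that passed.

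Of 38 tested PPAR alpha targets outside the family, 0 rose and 1 fell in fed knockouts and 0 rose and 2 fell in fasted knockouts. The fall in fed livers was Aldh3a2, and in fasted livers Aldh3a2 and Acot1. Acot1, a cytosolic acyl-CoA thioesterase, fell by 2.05 ± 0.40 in fasted knockouts (adjusted p = 0.0442, limma) and by 2.87 in the liver channel (adjusted p = 0.0151, limma). Its call by ratio was lost in 4 of 8 fits that left out 1 array, with adjusted p up to 0.123 (limma). Vnn1, a pantetheinase, changed by -2.59 ± 0.52 in fed knockouts (adjusted p = 0.08, limma), and Cd36, a fatty acid transporter, by -1.53 ± 0.42 (adjusted p = 0.306, limma). The list's median was -0.15 in fed and -0.20 in fasted knockouts, against 0.02 and 0.01 over all genes.

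In fasted livers 16 of the 38 targets were higher and 12 lower by ratio, against 23 and 1 in the liver channel. Among the 38, 7 were lower by ratio and higher in the liver channel. The list's median was 0.06 by ratio and 0.75 in the liver channel, against 0.05 and 0.03 over all genes. Acot4, a peroxisomal thioesterase, rose by 3.23 ± 0.27 by ratio (adjusted p = 1.48e-06, limma) and by 1.41 in the liver channel (adjusted p = 0.000367, limma). Fgf21, the hepatic fasting hormone, rose by 1.43 ± 0.37 (adjusted p = 0.00589, limma). Cpt1a, the gate of mitochondrial fatty acid oxidation, changed by 0.18 ± 0.12 by ratio (adjusted p = 0.21, limma) and rose by 1.55 in the liver channel (adjusted p = 6.06e-06, limma). Fabp1, the liver fatty acid binding protein, fell on both measures, with changes of -2.27 by ratio (adjusted p = 9.93e-08, limma) and -1.46 in the liver channel (adjusted p = 4.5e-06, limma).

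In newborn knockouts 0 of the 38 targets passed by ratio and 1 in the liver channel. By ratio 34 lay below 0 and 4 above, with a median of -0.35, against -0.01 over all genes, of which 47.4% lay above 0. Beside this list, 13 of the 14 Kupffer cell markers and 10 of 11 markers of stellate cells and fibroblasts lay below 0 by ratio. The second set had a median of -0.43. All 9 hepatocyte markers (median -0.11), 8 of 9 erythroid markers and 20 of 26 peroxisomal genes also lay below 0. Lymphocyte markers were split, with 4 above and 5 below 0. The part of these shifts was not tested. Fgf21 changed by -0.93 ± 0.26 (adjusted p = 0.129, limma) and Cpt1a by -0.57 ± 0.16 (adjusted p = 0.12, limma). Cidea, a lipid droplet protein, changed by 1.58 ± 0.38 by ratio (adjusted p = 0.0839, limma) and was the gene that passed in the liver channel, at 2.22 (adjusted p = 0.0384, limma).

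**Figure D5:**
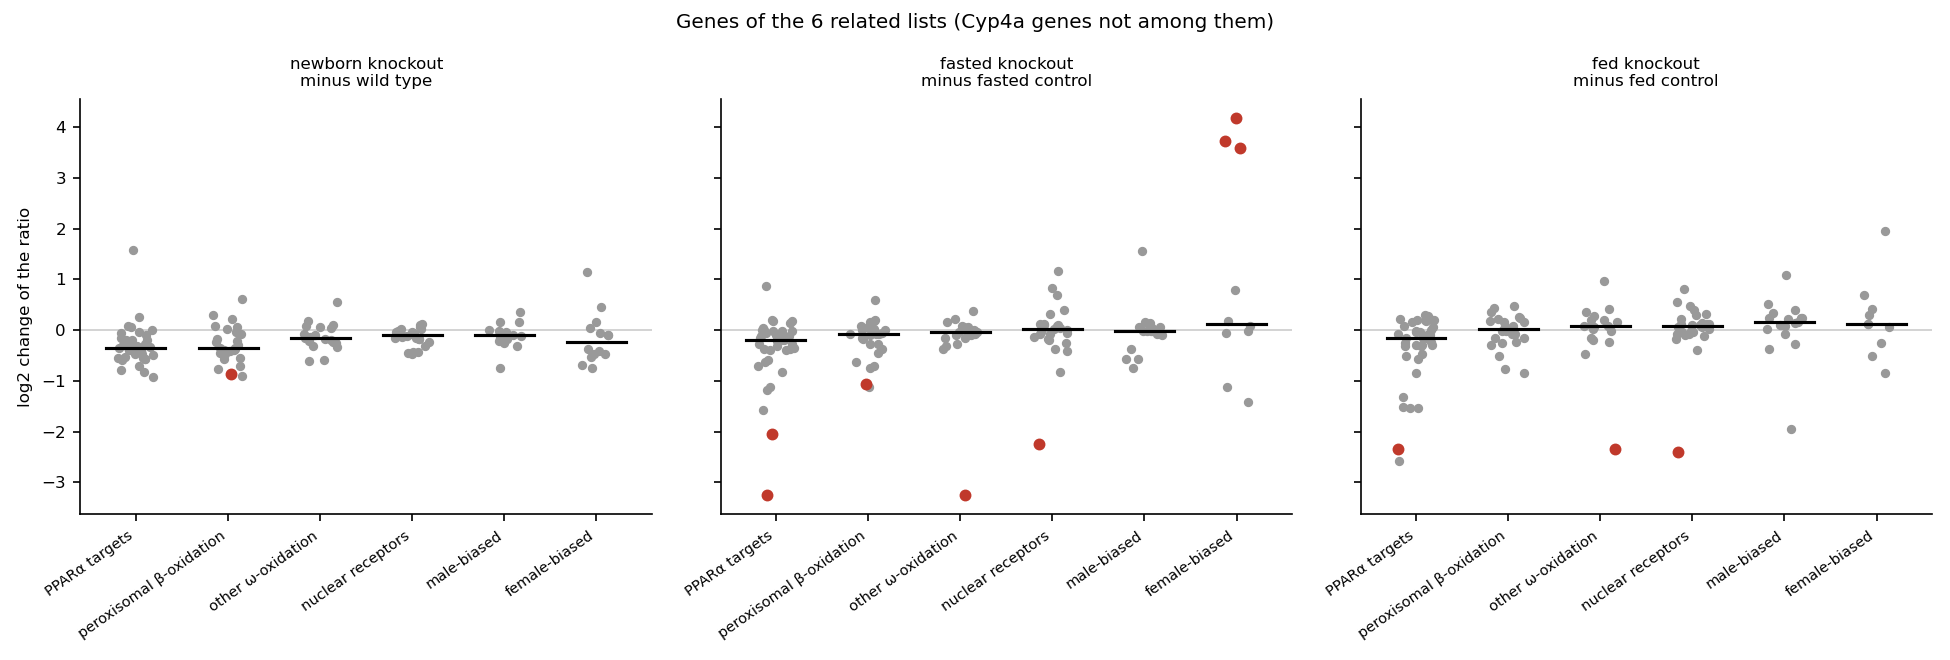
Log2 ratio change (vertical axis) of each gene (point) in the pathway lists around the Cyp4a family, by comparison; red points have an adjusted p below 0.05 and each line is the median of a list. In fed knockouts 1 of 38 PPAR alpha targets is red, and in newborns the median of that list lies at -0.35.

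Peroxisomal beta-oxidation, which shortens the dicarboxylic acids that omega-oxidation makes, had 26 genes tested in newborns and 25 in adults. Slc27a2, a very long chain acyl-CoA synthetase, fell by 0.87 ± 0.17 in newborn knockouts (adjusted p = 0.0408, limma) and changed by -0.65 in the liver channel (adjusted p = 0.122, limma). Its call was lost in 7 of 8 fits that left out 1 array, with adjusted p up to 0.129 (limma). In fasted knockouts Acot6, a peroxisomal thioesterase, fell by 1.07 ± 0.18 (adjusted p = 0.0133, limma), against -0.81 in the liver channel (adjusted p = 0.0975, limma), and its call was lost in 3 of 8 fits that left out 1 array, with adjusted p up to 0.0555 (limma). In fed knockouts 0 of 25 passed. With fasting 5 rose and 11 fell by ratio, against 12 and 3 in the liver channel. The median change was -0.35 in newborn knockouts, 0.02 in fed knockouts and -0.09 in fasted knockouts.

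Among 26 nuclear receptors and cofactors tested in adults, only Pparg passed in knockouts. Pparg, a receptor of the same family as PPAR alpha that drives lipid storage, fell by 2.41 ± 0.29 in fed knockouts (adjusted p = 0.00193, limma) and by 2.25 ± 0.25 in fasted knockouts (adjusted p = 0.000621, limma). Its liver-channel changes were -2.48 (adjusted p = 0.00127, limma) and -2.14 (adjusted p = 0.000996, limma). With fasting 8 rose and 5 fell by ratio, against 6 and 6 in the liver channel, and 0 of 25 passed in newborn knockouts.

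Of 17 male-biased genes tested in adults, 0 passed in either knockout comparison, as did 0 of 14 in newborns by ratio. In the liver channel Mup3, a major urinary protein, rose in newborn knockouts by 0.84 (adjusted p = 0.0172, limma), the 1 gene of the 14 that passed. With fasting 2 rose and 8 fell by ratio, against 5 and 5 in the liver channel. Mup3 changed by -1.93 ± 0.10 by ratio (adjusted p = 4.99e-08, limma) and by -0.39 in the liver channel (adjusted p = 0.0122, limma). Of 10 female-biased genes tested in adults, 3 rose in fasted knockouts by ratio and 0 fell. Those were Cyp2b10, a P450 induced through the receptor CAR, with a rise of 3.72 ± 0.47 (adjusted p = 0.00168, limma), Cyp2b9 with 4.18 ± 0.68 (adjusted p = 0.0122, limma) and Cyp2b13 with 3.58 ± 0.67 (adjusted p = 0.0333, limma). Leaving out 1 array at a time ended the call of Cyp2b13 in 7 of 8 fits, with adjusted p up to 0.101 (limma). In the liver channel 1 of these, Cyp2b10, rose, by 2.52 (adjusted p = 0.0176, limma), and Prlr, the prolactin receptor, fell by 1.40 (adjusted p = 0.0215, limma). With fasting 3 of the 10 rose and 4 fell by ratio, against 4 and 3 in the liver channel, and 0 of 14 passed in newborns.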

How the data were processed

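The 22 livers were measured on 2-colour Agilent mouse arrays, liver RNA in Cy3 and reference RNA in Cy5, with no dye swap. Agilent Feature Extraction 10.5.1.1 read the scans and probe positions are on mm9, per the file headers, whereas the submitters' processing notes name version 8.5.1.1. The deposited files hold median spot and background intensity in each channel, which the authors did not normalize, flags per spot, and the deposited log10 ratio of reference over liver that Feature Extraction computed from processed signals. The authors' table of all samples holds the same values, with a largest difference of 0 on each array.

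Ratios were recomputed in limma 3.58.1 (R 4.3.3, data.table in version 1.17.8) from median intensities. Steps were normexp at an offset of 50, with local backgrounds marked as outliers replaced by the median of the array, then loess with control spots unweighted, turned to log2 of liver over reference. Spots with a non-uniformity or population outlier flag were dropped, and spots of a probe were averaged. A probe entered a fit with liver signal well above background on 4 or more of the newborn, or 3 or more of the adult, arrays, and the brightest probe stood for each gene. Of 41174 probes, 32831 took their gene name from RefSeq (assembly GRCm38.p6, from which no coordinates were taken), and the other 8343 the name in the file. Groups were compared with lmFit and eBayes, two-sided, with Benjamini-Hochberg adjustment over 17176 newborn genes (8 arrays) or 17188 adult genes (14 arrays, 4 group means). The script was checked on simulated data. P-values measure the spread between the arrays of a group.

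The members, gene lists and tests were chosen with earlier results of these data known. The text names all members with every probe, Tcf7l2, up to 4 genes with the smallest adjusted p from each pathway list and comparison (examples are given), and the 5 genes most like Cyp4a14 and Cyp4a12a; albumin is named as a hepatocyte marker, chosen after its values were seen. Alternatives were outlier backgrounds kept, Feature Extraction's log ratio, median centring, the liver channel alone, no filter, the mean of all probes, blocks for replicate number and slide, and leaving out arrays. Replicates with the same number did not deviate together in every pair (correlations -0.24 to 0.50), so the numbers were not taken to pair samples. Figures were drawn with matplotlib 3.10.9, NumPy 2.4.6 and pandas 2.3.3 in Python 3.11.15.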

Additional observations from a re-analysis of the deposited data

Results flagged for a closer look

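Among 32 sets of 4 arrays (8 probes in 4 groups), 3 held an array far from the other 3 by Dixon's criterion, which chance meets in about 1 of 20 sets. The Cyp4a31 probe read 1.92 in newborn wild type 4, against 0.59 to 0.79 in the other wild types. The Cyp4a10 probe A_52_P340136 read 4.25 in fasted knockout 1, against 5.35 to 5.57 in the other fasted knockouts. Cyp4a12a read 2.08 in newborn wild type 1, against 3.49 to 3.72 in the other wild types. All values are log2 ratios of liver over reference.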

How the results depend on the processing

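With local backgrounds marked as outliers kept, 0 genes passed in newborns (251 otherwise), 11 in fed knockouts (38 otherwise) and 149 in fasted knockouts (120 higher, 29 lower, against 21 and 65), and the Cyp4a14 difference between fasted and fed knockout effects was 2.65. From Feature Extraction's own log ratio 441 genes passed in newborns and 11 for the interaction. On it the fasting split was 9080 higher and 2446 lower, against 4999 and 4103. Cyp4a14 then changed with fasting by 0.18, in fed knockouts by -1.33 and in fasted knockouts by 0.48. Cyp4a12b changed with fasting by -0.39. On the liver channel alone 890 genes passed in newborns (762 higher, 128 lower, against 193 and 58). The Cyp4a14 values there were -2.89 in fed knockouts, -2.48 in fasted knockouts and 0.41 for their difference. The fasting changes of Cyp4a12a (1.43), Slc27a2 (1.20 against -0.67 by ratio), Adh1 (0.064) and Prlr (-0.48, and -0.064 with outlier backgrounds kept, against 0.88) had the opposite sign. The mean of all probes of a gene gave 1 gene for the interaction. With slide as a block 132 genes passed in fasted knockouts, and within slides 4, 5 and 6 by themselves 0 passed, against 120 within slide 3. Within slides the Cyp4a14 knockout change was -0.03 and 0.24 in fasted livers (slides 3 and 4) and -1.68 and -2.29 in fed livers (slides 5 and 6). The causes of these shifts were not tested.

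With the replicate number as a block 347 genes passed in newborns, and Cyp4a14 and Cyp4a10 passed there, at -1.14 (adjusted p = 0.023, limma) and -1.40 (adjusted p = 0.0257, limma). In 5 of 22 arrays, 3 of them among the 8 newborn arrays, the closest array of the other genotype bore the same number. The numbers were not taken to pair samples, so nothing is read from the p-values of this fit. Leaving out 1 array at a time, genes passing ranged from 65 (without newborn wild type 3) to 428 (without newborn wild type 1) in newborns, from 32 to 99 in fed knockouts (99 without fed knockout 3, 66 without fed knockout 1), from 61 to 137 in fasted knockouts (137 without fasted knockout 4), and from 0 to 12 for the interaction (12 without fed knockout 3). The Cyp4a14 change then ran from -1.32 to -0.90 in newborn knockouts, with adjusted p from 0.0969 to 0.22 (limma), and from 0.85 to 1.16 with fasting. It ran from -2.38 to -1.75 in fed and from 0.03 to 0.26 in fasted knockouts. Alternatives added after the data were seen left out the newborn arrays that stood apart (155 genes, 69 higher and 86 lower). Cyp4a14 was at -1.62 in that fit. Others left out fasted knockouts 1 and 2 (40 genes in fasted knockouts) or fasted knockouts 2 and 3 (48 genes). Signals near background limit the fed arrays most, where Cyp4a31 could not be read.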
